A study of Mus musculus with 12 samples.

Results

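Livers of euthyroid NCoR mutant mice were compared with livers of hypothyroid control mice, a contrast in which the thyroid state and the corepressor differ at once. By the sample titles, euthyroid mutants 2, 3 and 4 were set against hypothyroid controls 17, 18 and 20, which makes 6 of the 12 liver samples of the study. The mutants, named L-NCoR∆ID in the design text of the series, carry an altered form of NCoR (the nuclear receptor corepressor) in liver and had normal thyroid hormone. The controls kept an intact NCoR and were short of thyroid hormone. The other samples, 3 hypothyroid mutants (5, 6 and 7) and 3 euthyroid controls (13, 14 and 15), completed a design of genotype by thyroid state and served to split the contrast into its parts. Per that text, the study addressed the part of NCoR in genes that thyroid hormone raises and in genes that it lowers. The alleles of the controls, the driver of the liver-specific change, the way hypothyroidism was made, sex, age and the hour of collection were not stated by the sources used here. The labels do not say whether the samples of a group came from separate mice, so p-values measure the spread between these samples. The Ncor1 transcript itself was not analysed here.

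Thyroid hormone receptors sit on their target genes with or without hormone. Without hormone they recruit NCoR, which brings histone deacetylase to the gene and holds its transcription down, and with hormone they release NCoR and recruit coactivators. The ∆ID form of NCoR lacks main domains through which it binds nuclear receptors. In liver these receptors govern genes of lipid synthesis, bile acid synthesis and hormone deiodination.

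Signal was read as RMA values on the log2 scale for 21789 transcript clusters that carry exactly 1 gene symbol (19938 genes). Differences with an adjusted p under 0.05 in limma were called. The contrast is the exact sum of 2 averaged effects: mutant minus control over both thyroid states, and euthyroid minus hypothyroid over both genotypes. Both are given in that direction throughout, so that effects of one sign add up in the contrast and effects of opposite sign cancel in part or in full. Array medians lay between 4.16 and 4.32, and the spread of signal overlapped between the groups compared, with SDs of 2.26 to 2.31 in euthyroid mutants and 2.29 to 2.30 in hypothyroid controls. The averaged effects also use hypothyroid mutants, with SDs of 2.316 to 2.35, and euthyroid controls, with SDs of 2.219 to 2.285, which did not overlap. Counts with the array SD as a covariate are therefore given beside the averaged effects. On the second principal component (18.5% of the variance) the euthyroid mutants lay at -16.55 to -23.74 and the hypothyroid controls at 18.73 to 26.17, at opposite ends. Euthyroid control 14 (54.76) and hypothyroid mutant 7 (-40.15) stood apart from the other arrays on the first component (36.8%), and the contrast is given without them where its count is first given. The 8 measured hepatocyte markers had means over all arrays of 9.77 to 13.49.

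Between euthyroid mutants and hypothyroid controls, 575 clusters of 561 genes were called, which is 2.64% of all tested. Of these, 289 were higher (1.33%) and 286 lower (1.31%) in euthyroid mutants, and the median difference over all clusters was 0.00. Without euthyroid control 14 and hypothyroid mutant 7 the count was 823, and 574 of the 575 remained. The groups did not overlap in any of the 575, against 4574 (21%) of all clusters. The mutant effect averaged over thyroid states was called in 248 clusters (1.14%), higher in 197 (0.904%) and lower in 51 (0.234%). That count depends on single arrays: it was 1866 without euthyroid control 13, and 107 to 158 without any 1 of euthyroid mutants 2, 3 or 4, hypothyroid mutants 6 or 7, euthyroid control 15, or hypothyroid controls 17 or 18. With the array SD as a covariate it was 41 (25 higher, 16 lower). The thyroid effect averaged over genotypes was called in 1317 (6.04%), higher in 407 (1.87%) and lower in 910 (4.18%). It was 3579 without euthyroid control 13, and 680 to 811 without any 1 of euthyroid mutants 2 or 4, hypothyroid mutant 7, or hypothyroid controls 17, 18 or 20. With the array SD as a covariate it was 181, and the split turned to 131 higher and 50 lower, against 490 higher and 529 lower after quantile normalization. Of the 575 called clusters, 355 (61.7%) lay in the set where the thyroid effect was called and the genotype effect was not, 73 (12.7%) where the genotype effect alone was called, and 50 (8.7%) where both were called with 1 sign. A further 3 had both called with opposite signs, and in 94 (16.3%) neither effect passed by itself. The difference in the mutant effect between thyroid states (the interaction) was called in 0 clusters by limma, with 600 at an unadjusted p under 0.05 and a smallest adjusted p of 0.287. The count of 575 rests on single arrays, since it was 282 without hypothyroid control 17, 365 without hypothyroid control 18, 379 without euthyroid mutant 2 and 340 without euthyroid mutant 4.

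**Figure D1:**
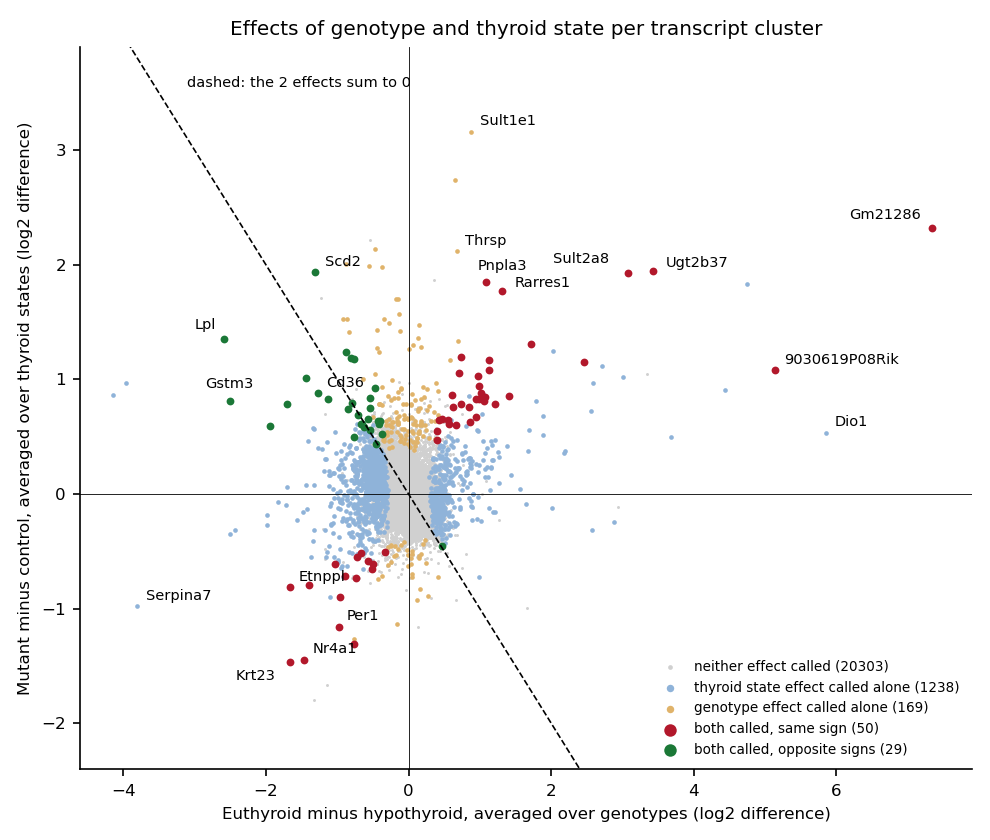
Each point is 1 of 21789 transcript clusters, with the euthyroid minus hypothyroid difference on the x axis and the mutant minus control difference on the y axis (both log2 differences averaged over the other factor). The 50 red clusters have both effects called with 1 sign, the 29 green ones with opposite signs, and clusters on the dashed line have a contrast of 0. Dio1 lies far to the right near the x axis. Lpl lies to the left of the dashed line, with a contrast of -1.24, and Scd2 to the right of it, with 0.62.

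The deiodinase Dio1, which converts thyroxine to the active hormone triiodothyronine, had the smallest p of the contrast. Its signal was 9.51, 9.62 and 9.74 in the 3 euthyroid mutants, against 3.21, 3.25 and 3.24 in the 3 hypothyroid controls. Every mutant array was high and every control array low, with an 83.8-fold difference (log2 6.39, SE 0.21, adjusted p = 1.96e-10). The hypothyroid control signals lay below every array median and may be background, so the size of this fold is not settled. The hypothyroid mutants read 3.20, 3.72 and 2.83 and the euthyroid controls 8.14, 8.91 and 8.67. Dio1 therefore separated the arrays by thyroid state, with a thyroid effect of 5.85 (adjusted p = 4.41e-12) and a mutant effect of 0.54 (adjusted p = 0.103). The carrier Serpina7, which encodes thyroxine-binding globulin, lay the other way. It read 4.61, 5.09 and 3.93 in euthyroid mutants, against 9.0, 8.84 and 10.14 in hypothyroid controls. All 3 mutant arrays were below all control arrays, a fall of 27.6-fold (log2 -4.78, SE 0.62, adjusted p = 0.000382) that was the largest called in the contrast. Of its effects the thyroid one was called (-3.80, adjusted p = 0.000116) and the mutant one was not (-0.98, adjusted p = 0.276). Among 13 measured receptors, deiodinases and carriers, 1 rose and 2 fell (23.1% called, against 2.64% of all clusters). The receptors themselves did not pass. Thrb averaged 6.36 ± 0.084 in euthyroid mutants and 6.47 ± 0.0757 in hypothyroid controls (SD, n = 3 each), with an adjusted p of 0.926. Thra averaged 6.40 ± 0.0515 in euthyroid mutants and 6.87 ± 0.0398 in hypothyroid controls (SD, n = 3 each), with no overlap and an adjusted p of 0.0809 that became 0.0407 when the 6 arrays of the contrast were fitted alone.

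The largest measured difference was that of Gm21286, which RefSeq lists as a long non-coding RNA on chromosome 4 among the Mup genes Mup12, Mup22, Mup13 and Mup14. It read 11.47, 11.05 and 11.34 in euthyroid mutants, against 1.57, 1.52 and 1.78 in hypothyroid controls. The hypothyroid mutants (2.01, 4.14 and 1.99) stayed low and the euthyroid controls (7.25, 6.87 and 9.07) lay in between. The contrast was 9.66 on the log2 scale (SE 0.53, adjusted p = 9.89e-08), from a thyroid effect of 7.34 and a mutant effect of 2.32. The hypothyroid control signal lay at percentile 0.2 of the array and is not shown to be above background, so neither the size of this rise nor its rank is settled. Mup genes are near-identical copies of each other, and whether their transcripts add to this cluster's signal was not tested. The unnamed transcript 9030619P08Rik followed the same order, at 9.82, 9.32 and 9.40 in euthyroid mutants, against 3.0, 3.01 and 3.85 in hypothyroid controls. Its rise was 75-fold (log2 6.23, SE 0.24, adjusted p = 8.88e-10). In Ugt2b37, a glucuronosyltransferase gene, the rise was 41.4-fold (log2 5.37, SE 0.49, adjusted p = 1.59e-05), with euthyroid mutants between 7.34 and 9.83 and hypothyroid controls between 2.85 and 3.78. Cyp3a16, a steroid- and drug-oxidising cytochrome P450, was even among euthyroid mutants at 8.95, 8.96 and 8.94, against 2.61, 2.57 and 1.92 in hypothyroid controls. The euthyroid controls were spread over nearly that whole range, at 2.57, 6.16 and 8.81, and the mutant effect did not pass (1.83, adjusted p = 0.198), while the 95.9-fold contrast did (adjusted p = 0.00105). The hypothyroid controls of 9030619P08Rik, Ugt2b37 and Cyp3a16 lay below every array median and may be background, so these fold sizes are not settled either. A1bg, Sult5a1, Elovl3 and Tlcd2 also rose, by 40.7-, 18.2-, 14.2- and 12.2-fold. The hypothyroid control mean of Sult5a1 (3.84) was below every array median too, so its fold size is not settled. Of the 12 largest rises, 11 kept their call when any 1 of the 12 arrays was left out, and of the 12 largest falls 9 did.

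Sulfotransferases were the list with the highest median. These cytosolic enzymes add sulfate to steroids, bile acids, thyroid hormones and drugs. Of 10 measured members 5 rose (50%, against 1.33% of all clusters) and 0 fell, with a median difference of 1.99 against 0.00 over all clusters. No member lay near that median, since the 5 that rose did so by 3.38 to 5.0 on the log2 scale. The 5 that were not called differed by -0.39 to 0.59. Sult2a8, of the subfamily that sulfates hydroxysteroids and bile acids, read 9.39, 9.69 and 9.57 in euthyroid mutants, against 3.83, 5.81 and 4.0 in hypothyroid controls. The hypothyroid mutants (7.46, 8.13 and 8.56) and the euthyroid controls (9.65, 8.83 and 9.12) were high too. Only the hypothyroid control arrays were low, although the interaction of Sult2a8 was not called. Its contrast was 32-fold (log2 5.0, SE 0.41, adjusted p = 8.52e-06). Sult1e1, the estrogen sulfotransferase, took its rise from genotype. It read 6.53, 5.19 and 8.28 in euthyroid mutants, against 2.35, 2.49 and 3.02 in hypothyroid controls, a 16.5-fold rise (adjusted p = 0.00609). Its hypothyroid control signals lay below every array median and may be background, so that fold size is not settled. Its mutant effect was 3.16 (adjusted p = 0.00786) and its thyroid effect 0.88 (adjusted p = 0.304). Sult5a1 had the opposite make-up, with a thyroid effect of 3.69 (adjusted p = 1.17e-06) and a mutant effect of 0.50 (adjusted p = 0.35). Sult3a1 rose 16.4-fold (adjusted p = 0.0397), and this call was lost without any 1 of the 3 euthyroid mutants or without hypothyroid control 17 or 20, with an adjusted p of up to 0.183. Papss2, which makes the sulfate donor that these enzymes use, was picked out after its values were seen. It read 11.15, 11.06 and 11.02 in euthyroid mutants, against 8.48, 9.89 and 8.83 in hypothyroid controls, a 4.03-fold rise (adjusted p = 0.000466).

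**Figure D2:**
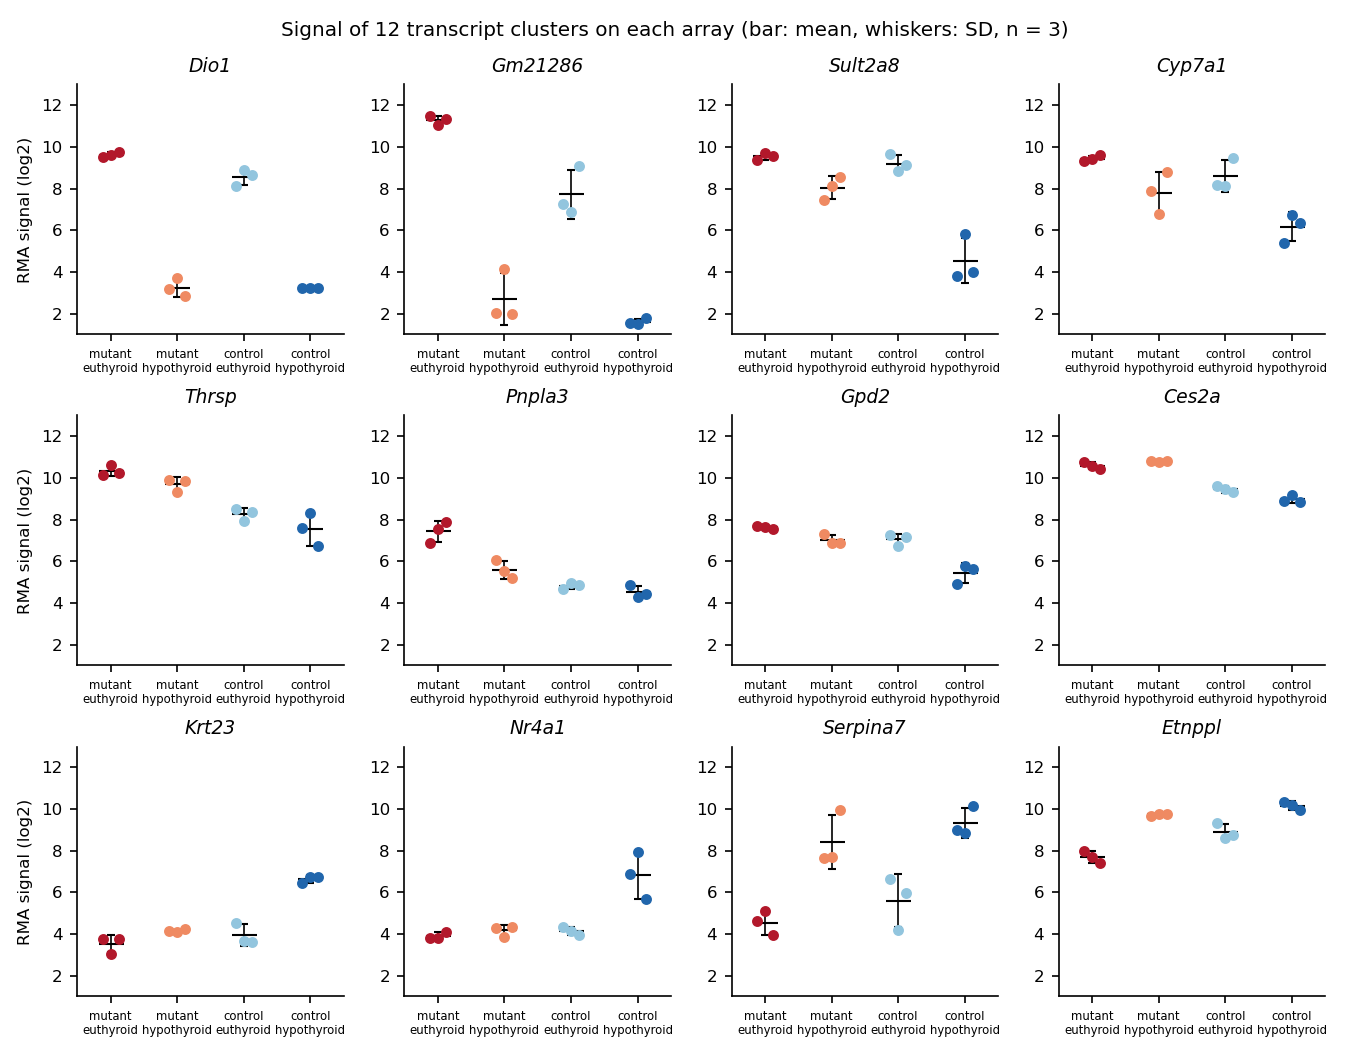
RMA signal (log2, y axis) of 12 transcript clusters on each of 12 arrays, in the order euthyroid mutant, hypothyroid mutant, euthyroid control, hypothyroid control. Points are arrays, bars group means and whiskers SDs (n = 3). Dio1 and Serpina7 separate by thyroid state and Ces2a and Thrsp mostly by genotype, while Sult2a8, Krt23, Nr4a1 and Gpd2 set the hypothyroid controls apart from the other groups.

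The clusters in which both averaged effects were called with 1 sign numbered 50 (49 genes). Such effects add up in the contrast by definition, and equal signs do not show that the 2 changes acted additively in a gene. In 34 both effects were positive and in 16 both were negative. The number was 117 without euthyroid control 13, 30 without hypothyroid control 17 and 6 with the array SD as a covariate. All 50 were called in the contrast, which follows from the addition itself. The 34 rises ran from 0.87 (Itpk1, an inositol phosphate kinase gene) to 9.66 (Gm21286), and the 16 falls from -0.83 (Ldlrad3) to -3.13 (Krt23). Their median absolute difference in the contrast was 1.84, from 0.82 for the mutant effect and 0.96 for the thyroid effect. The 2 medians were of similar size, whereas the largest rises (Gm21286, 9030619P08Rik) had mainly a thyroid effect. Gpd2, the mitochondrial glycerol-3-phosphate dehydrogenase and a textbook thyroid hormone target, read 7.72, 7.67 and 7.56 in euthyroid mutants, against 4.91, 5.79 and 5.61 in hypothyroid controls. The hypothyroid mutants (7.31, 6.88 and 6.86) overlapped the euthyroid controls (7.26, 6.75 and 7.16), and the interaction of Gpd2 was not called. Its contrast was 4.63-fold (adjusted p = 2.2e-05), with a mutant effect of 1.09 and a thyroid effect of 1.13. Pnpla3, which encodes a lipid droplet protein that acts on triglyceride, was highest in euthyroid mutants. It read 6.89, 7.56 and 7.88 there, against 4.87, 4.27 and 4.41 in hypothyroid controls (7.61-fold, adjusted p = 1.04e-05). Hypothyroid mutants (6.06, 5.53 and 5.21) were above the euthyroid controls (4.67, 4.97 and 4.88), which overlapped the hypothyroid controls.

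Further genes with both effects of 1 sign came from several parts of liver metabolism. Cyp7b1, an oxysterol hydroxylase of bile acid synthesis, read 8.65, 8.98 and 9.88 in euthyroid mutants, against 7.25, 6.41 and 6.95 in hypothyroid controls. Its mutant and thyroid effects were nearly equal at 1.17 and 1.13, and the contrast was 4.92-fold (adjusted p = 0.000167). Rarres1, named for its response to retinoic acid, rose 8.45-fold, Paqr9, of the progestin and adiponectin receptor family, 8.11-fold, and Gpcpd1, a glycerophosphocholine phosphodiesterase, 4.80-fold. Paqr9 resembled Sult2a8 in that the hypothyroid controls (7.35, 7.69 and 6.91) lay below all other arrays (8.73 to 10.52). Its interaction was not called either. A pair of nuclear receptor genes, picked out after their values were seen, moved in opposite directions. Esr1, the estrogen receptor, read 7.51, 7.32 and 8.02 in euthyroid mutants, against 5.96, 6.37 and 6.03 in hypothyroid controls (2.82-fold higher, adjusted p = 0.00022). Nr1i3, the xenobiotic receptor CAR, read 8.99, 9.63 and 8.76 in euthyroid mutants, against 10.32, 10.44 and 10.11 in hypothyroid controls (2.24-fold lower, adjusted p = 0.00353).

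Of the genes with both effects negative, Krt23 and Nr4a1 were high in hypothyroid controls alone. Krt23, a keratin gene, read 3.74, 3.05 and 3.78 in euthyroid mutants, against 6.44, 6.75 and 6.76 in hypothyroid controls (8.74-fold lower, log2 -3.13, SE 0.23, adjusted p = 4.27e-06). The hypothyroid mutants (4.13, 4.08 and 4.22) and euthyroid controls (4.54, 3.68 and 3.60) overlapped each other, below every hypothyroid control. Its interaction of 2.09 had the smallest adjusted p of the table, 0.287, and so was not called. Of the other 5 measured cholangiocyte markers none was called, with differences from -0.16 to 0.13. Nr4a1, an orphan nuclear receptor of the immediate early class, read 3.83, 3.81 and 4.11 in euthyroid mutants, against 6.90, 7.93 and 5.66 in hypothyroid controls (7.51-fold lower, adjusted p = 0.000361). The euthyroid mutant signals of Krt23 and Nr4a1 lay below every array median and may be background, so these fold sizes are not settled. For Nr4a1, all 9 arrays outside the hypothyroid controls lay at or below 4.34, and its interaction was not called. Etnppl, which breaks down phosphoethanolamine, was graded instead, with 8.0, 7.69 and 7.39 in euthyroid mutants, against 10.34, 10.19 and 9.95 in hypothyroid controls. Its hypothyroid mutants (9.68, 9.78 and 9.78) and euthyroid controls (9.33, 8.62 and 8.75) filled the gap, and the contrast was 5.54-fold lower (adjusted p = 5.54e-06). Ociad2 (4.55-fold), Pcp4l1 (4.22-fold), Flvcr2 (3.64-fold), Arsa, the lysosomal arylsulfatase A (3.11-fold), the microsomal glutathione transferase Mgst3 (3.04-fold) and the F-box gene Fbxo21 (2.76-fold) were lower by smaller amounts.

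The clusters in which both averaged effects were called with opposite signs numbered 29 (27 genes), a set that depends heavily on single arrays and on the model. It numbered 697 without euthyroid control 13, 11 without hypothyroid control 17, 12 to 19 without any 1 of euthyroid mutants 2 or 4, hypothyroid mutants 6 or 7, euthyroid controls 14 or 15, or hypothyroid controls 18 or 20, and 5 with the array SD as a covariate. In 28 of them the mutant effect was positive and the thyroid effect negative, and Gas1, a growth arrest gene, had the reverse. The median absolute difference in the contrast was 0.23, from 0.74 for the mutant effect and 0.71 for the thyroid effect. Of the 29, 3 clusters were called lower in the contrast, and 26 were not called. Gas1, Gpam, Dlat, Tfrc, Pgrmc2 and Scd1 were picked out after their values were seen. Pgd, the NADPH-making dehydrogenase of the pentose phosphate pathway, came out closest to 0. It read 7.68, 8.05 and 8.11 in euthyroid mutants, against 7.83, 7.82 and 8.18 in hypothyroid controls, and the groups overlapped. The hypothyroid mutants were higher (8.84, 8.84 and 8.83) and the euthyroid controls lower (7.54, 7.03 and 7.17). The mutant effect of 0.80 (adjusted p = 0.00299) met a thyroid effect of -0.79 (adjusted p = 0.000757), and the contrast was 0.00 with a 95% interval of -0.34 to 0.35. Gpam, which begins glycerolipid synthesis, was close to it at -0.06 (95% interval -0.35 to 0.23), with 9.34, 9.56 and 9.44 in euthyroid mutants, against 9.50, 9.62 and 9.40 in hypothyroid controls. The pyruvate dehydrogenase subunit gene Dlat (0.08), the transferrin receptor gene Tfrc (-0.02) and Pgrmc2 (-0.04) also lay near 0, with intervals that ran from -0.48 at the lowest to 0.44 at the highest.

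Scd2, a stearoyl-CoA desaturase, had the largest mutant effect of the 29, at 1.93 (adjusted p = 2.8e-06), against a thyroid effect of -1.31 (adjusted p = 2.78e-05). It read 5.92, 6.13 and 5.40 in euthyroid mutants, against 4.96, 5.50 and 5.13 in hypothyroid controls. The mutant array 4 fell within the range of the controls, and the difference of 0.62 (95% interval 0.23 to 1.01) did not pass (adjusted p = 0.102). Scd1, the main desaturase of liver, differed by 0.30 (95% interval -0.07 to 0.67), with effects of 0.84 and -0.53. Lpl, lipoprotein lipase, read 6.65, 7.16 and 5.80 in euthyroid mutants, against 7.11, 7.97 and 8.25 in hypothyroid controls, an overlap of 1 array on each side. Its thyroid effect (-2.59) was the larger part, its mutant effect was 1.35, and the remaining -1.24 (95% interval -2.07 to -0.40) was not called (adjusted p = 0.135). Cd36, a fatty acid uptake receptor, read 9.09, 8.62 and 9.0 in euthyroid mutants, against 9.06, 9.22 and 9.58 in hypothyroid controls, and the groups overlapped. Its euthyroid controls were the low group (7.67, 6.61 and 8.04). The retinol dehydrogenase Rdh11 (0.41), Gadd45b, a stress-response gene (-0.30), the transcript 9130409I23Rik (-0.42), Snhg11 (-0.10) and the 2 clusters of Sytl5 (0.38 and 0.36) also missed the threshold.

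Gstm3 and Abcc4 were called lower although their effects opposed each other. Gstm3, a glutathione transferase, was measured by 2 clusters that moved together. One read 10.28, 10.20 and 10.23 in euthyroid mutants, against 11.97, 11.75 and 12.04 in hypothyroid controls (3.22-fold lower, adjusted p = 1.19e-05), and the other was 2.53-fold lower. The highest arrays were those of hypothyroid mutants (12.71, 12.37 and 12.28) and the lowest those of euthyroid controls (9.17, 8.92 and 9.34). Abcc4, an efflux pump of bile acids and organic anions, was 1.89-fold lower (adjusted p = 0.0398). That call was lost without euthyroid control 15, hypothyroid control 17 or 20, euthyroid mutant 3 or 4, or hypothyroid mutant 5, with an adjusted p of up to 0.172.

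**Figure D3:**
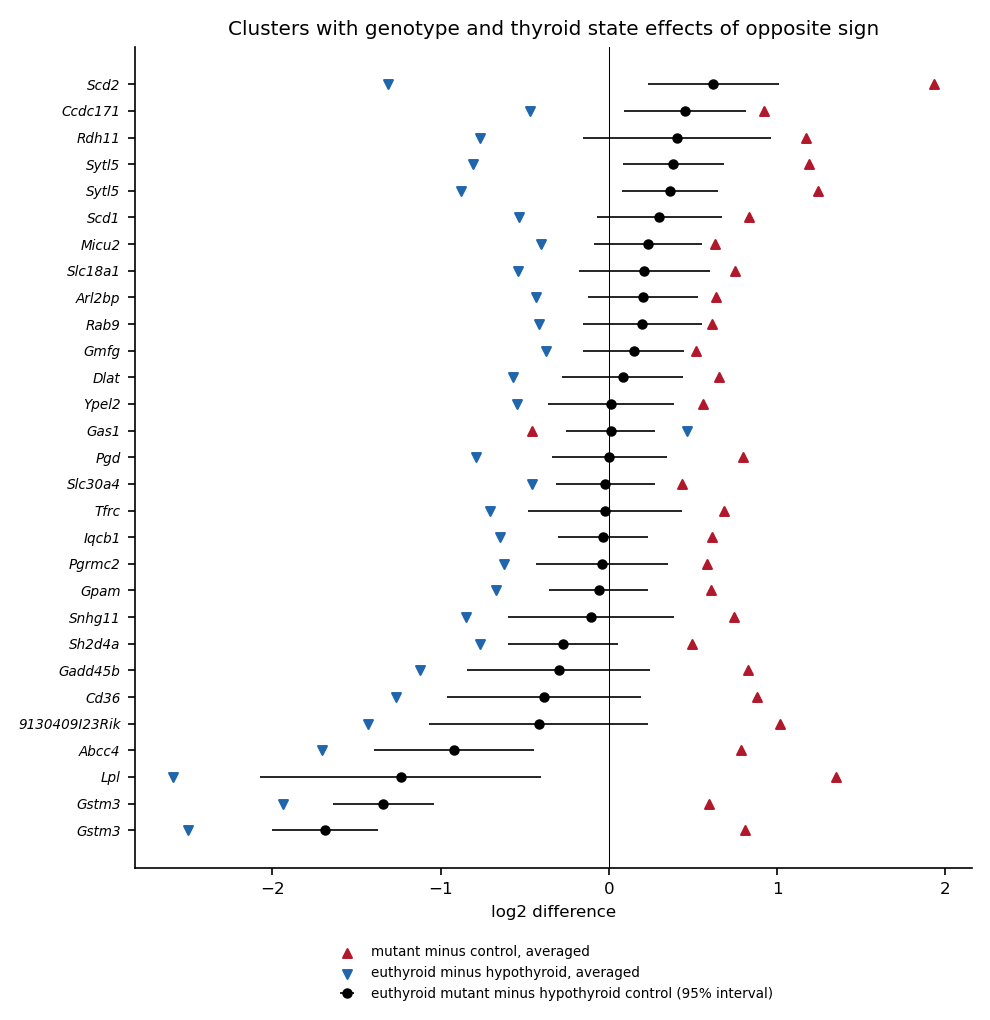
The 29 transcript clusters with mutant and thyroid effects of opposite sign (log2 differences, x axis), ordered by the contrast. Upward triangles are the mutant minus control effect, downward triangles the euthyroid minus hypothyroid effect, and black points the euthyroid mutant minus hypothyroid control difference with its 95% interval. Pgd and Gpam sit at 0 between effects of similar size, while Lpl and both Gstm3 clusters lie to the left.

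Promoter windows of these genes, 300 bases long and spanning each RefSeq start on GRCm38.p6, were searched on both strands for AGGTCA, a half-site for nuclear receptors, and for CACGTG, the E-box read by clock and lipogenic factors. Of the genes with both effects of 1 sign, 40 of 49 had a window, and 20% of them held AGGTCA and 17.5% CACGTG. Of the genes with opposite signs, 22 of 27 had a window, and 22.7% held AGGTCA and 18.2% CACGTG. Over all 15563 tested genes with a window the shares were 16.3% and 9.52%. The thyroid response element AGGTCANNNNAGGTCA, in which 4 free bases part the half-sites, was in no window of a tested gene. Windows of 5 genes are given to show where the letters fall. Sult2a8 and Per1 had both effects of 1 sign, Rdh11 and Gpam had opposite signs, and Ciart belongs to the clock. Capitals mark each AGGTCA, its reverse TGACCT, or CACGTG. Sult2a8, Rdh11, Gpam and Per1 each have a second RefSeq window that holds neither, and a match describes letters and not a bound site.
Sult2a8, chr7:14438502-14438801, minus strand: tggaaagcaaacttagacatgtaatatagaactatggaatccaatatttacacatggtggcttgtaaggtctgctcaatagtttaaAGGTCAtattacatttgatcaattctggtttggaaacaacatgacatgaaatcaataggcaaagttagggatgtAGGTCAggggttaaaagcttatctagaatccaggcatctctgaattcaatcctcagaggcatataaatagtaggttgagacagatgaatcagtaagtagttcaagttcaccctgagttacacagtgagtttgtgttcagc
Per1, chr11:69098699-69098998, plus strand: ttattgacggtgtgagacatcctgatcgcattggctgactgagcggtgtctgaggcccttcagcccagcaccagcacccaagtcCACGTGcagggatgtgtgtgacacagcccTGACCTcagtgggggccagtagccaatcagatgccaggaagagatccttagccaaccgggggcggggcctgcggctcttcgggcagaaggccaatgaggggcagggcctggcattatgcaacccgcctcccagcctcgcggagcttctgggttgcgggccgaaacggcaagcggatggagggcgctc
Rdh11, chr12:79190912-79191211, minus strand: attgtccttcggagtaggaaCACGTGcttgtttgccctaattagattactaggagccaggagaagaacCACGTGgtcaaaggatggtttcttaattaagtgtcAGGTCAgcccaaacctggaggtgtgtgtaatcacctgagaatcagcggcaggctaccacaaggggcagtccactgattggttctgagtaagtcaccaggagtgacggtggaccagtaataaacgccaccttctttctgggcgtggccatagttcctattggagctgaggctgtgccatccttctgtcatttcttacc
Gpam, chr19:55099428-55099727, minus strand: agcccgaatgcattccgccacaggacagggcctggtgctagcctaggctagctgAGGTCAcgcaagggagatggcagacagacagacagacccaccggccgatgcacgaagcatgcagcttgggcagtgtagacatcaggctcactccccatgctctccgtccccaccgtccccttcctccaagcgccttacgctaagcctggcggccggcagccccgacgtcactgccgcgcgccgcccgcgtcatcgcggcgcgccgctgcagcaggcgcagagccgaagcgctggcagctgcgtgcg
Ciart, chr3:95882179-95882478, minus strand: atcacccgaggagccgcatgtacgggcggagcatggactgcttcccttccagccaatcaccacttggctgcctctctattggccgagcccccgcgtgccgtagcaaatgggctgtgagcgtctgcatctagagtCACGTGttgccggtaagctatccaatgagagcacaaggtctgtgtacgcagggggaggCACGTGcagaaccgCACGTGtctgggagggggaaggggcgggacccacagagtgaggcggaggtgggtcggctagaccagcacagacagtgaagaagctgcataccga

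Among 19 measured thyroid hormone induced liver genes, 7 rose, 1 fell and 11 did not pass (42.1% called, against 2.64% of all clusters), and the median difference was 0.13. Thrsp, a lipogenic protein and a classic hormone target, read 10.14, 10.63 and 10.23 in euthyroid mutants, against 7.60, 8.30 and 6.72 in hypothyroid controls (6.96-fold, adjusted p = 7.74e-05). Most of that was the mutant effect of 2.12, and the thyroid effect of 0.68 had an adjusted p of 0.0698. Me1, the NADPH-making malic enzyme, had 2 clusters, which rose 2.92- and 2.70-fold on genotype alone, with thyroid effects of -0.15 and -0.13. Klf9, a hormone-induced transcription factor gene, did not pass (-0.64, adjusted p = 0.136). It averaged 7.37 ± 0.35 in euthyroid mutants and 8.01 ± 0.193 in hypothyroid controls (SD, n = 3 each). Ppargc1a, the coactivator PGC-1alpha, was the member that fell, with 5.19, 5.17 and 4.99 in euthyroid mutants, against 6.31, 6.62 and 6.75 in hypothyroid controls (2.73-fold, adjusted p = 0.00204).

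In fatty acid and triglyceride synthesis, 9 of 26 measured genes rose and 1 fell (38.5% called, against 2.64% of all clusters), with a median of 0.52. The list was itself split, since its median mutant effect was 0.55 and its median thyroid effect -0.19. Pnpla3 and Thrsp rose most, and the carboxylase gene Acacb rose 2.80-fold (adjusted p = 0.0169). The Acacb call was lost without hypothyroid control 17 or 20 or euthyroid mutant 4, with an adjusted p of up to 0.105. Lpin1, a phosphatidate phosphatase and coregulator, was the 1 that fell (3.47-fold, adjusted p = 0.0483), a call kept in only 5 of the 12 fits without 1 array and lost without euthyroid control 15, hypothyroid controls 17, 18 or 20, euthyroid mutants 2 or 4, or hypothyroid mutant 5 (adjusted p of up to 0.207). Of 11 lipogenic regulators 1 rose and 1 fell (18.2% called, against 2.64% of all clusters). Mlxipl, which encodes the carbohydrate sensor ChREBP, rose by 0.80 and Pparg fell by 0.98 on the log2 scale. The Mlxipl call (adjusted p = 0.0436) was lost without any of 8 arrays, euthyroid control 15, hypothyroid controls 18 and 20, the 3 euthyroid mutants and hypothyroid mutants 6 and 7 (adjusted p of up to 0.175). Pparg (adjusted p = 0.0129) was lost without hypothyroid control 17 or 20 or euthyroid mutant 2 (adjusted p of up to 0.0661).

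Cholesterol synthesis was higher in 8 of 17 measured genes (47.1%, against 1.33% of all clusters) and lower in 0. The median was 0.75 and all 17 differences were positive, against 11063 of the 21789 clusters. Sqle, squalene epoxidase, read 8.65, 9.17 and 9.08 in euthyroid mutants, against 7.23, 7.96 and 7.32 in hypothyroid controls (2.76-fold, adjusted p = 0.00103). Its mutant effect was called (1.28) and its thyroid effect was not (0.18, adjusted p = 0.474). Hmgcs1, the cytosolic HMG-CoA synthase of sterol synthesis, rose 2.47-fold, and the isomerase gene Idi1 2.07-fold. Both calls were lost without hypothyroid control 17 or 20 or euthyroid mutant 3 or 4 (adjusted p of up to 0.129). In bile acid synthesis and transport, 6 of 21 genes rose and 2 fell (38.1% called, against 2.64% of all clusters). Cyp7a1, the rate-limiting enzyme of bile acid synthesis, read 9.32, 9.40 and 9.60 in euthyroid mutants, against 5.40, 6.74 and 6.37 in hypothyroid controls (9.64-fold, adjusted p = 0.000644). Its thyroid effect of 2.03 was called and its mutant effect of 1.24 was not (adjusted p = 0.075). Cyp27a1, the mitochondrial sterol 27-hydroxylase, rose 2.28-fold with both effects called, and the efflux pump gene Abcc3 fell 2.16-fold on thyroid state.

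Drug and xenobiotic genes went in both directions. Among Cyp2 and Cyp3 genes 5 of 25 rose and 3 fell (32% called, against 2.64% of all clusters). Cyp3a44 rose 3.76-fold (adjusted p = 0.00243) and Cyp2f2 2.23-fold (adjusted p = 0.00118). Cyp2d9 fell 4.48-fold (adjusted p = 0.00951), with a call lost without hypothyroid control 17 or 20 or euthyroid mutant 2 or 4 (adjusted p of up to 0.0599). Cyp4a12b, a fatty acid hydroxylase gene, fell 7.91-fold (adjusted p = 0.0384), with a call lost without hypothyroid control 17 or 20, euthyroid mutant 2 or 4, or hypothyroid mutant 6 (adjusted p of up to 0.201). Of 14 carboxylesterases 2 rose and 3 fell (35.7% called, against 2.64% of all clusters). Ces3b rose 9.72-fold, mostly on thyroid state (2.56), and Ces2a 3.08-fold, mostly on genotype (1.47). Ces2a read 10.79, 10.59 and 10.42 in euthyroid mutants, against 8.88, 9.19 and 8.86 in hypothyroid controls. Of 24 glutathione transferases and NRF2 targets, 6 fell (25%, against 1.31% of all clusters) and 0 rose, with a median of -0.45. Nqo1, a quinone reductase, read 5.82, 5.56 and 5.72 in euthyroid mutants, against 7.80, 7.42 and 7.60 in hypothyroid controls (3.74-fold lower, adjusted p = 7.11e-06). Its mutant effect was -0.07, so the fall was that of the thyroid state, and Gstp1, the pi class transferase, fell 3.77-fold (adjusted p = 0.000475).

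Clock genes fell in 6 of 17 members (35.3%, against 1.31% of all clusters) and rose in 0, with a median of -0.91. Differences were positive in 4 members, Nfil3 (0.85), Arntl (0.84), Clock (0.29) and Cry1 (0.18), none of them called. The hour of collection was not stated, and its part in these values was not tested. Per1, a repressor arm gene of the clock, read 4.50, 5.46 and 3.80 in euthyroid mutants, against 6.94, 6.65 and 6.57 in hypothyroid controls (4.40-fold lower, adjusted p = 0.00173). Both its effects were called, at -1.16 for the mutant and -0.98 for the thyroid effect. Dbp, a clock output transcription factor gene, was called in the contrast and in neither effect by itself. It read 5.23, 5.51 and 4.79 in euthyroid mutants, against 8.33, 8.41 and 7.23 in hypothyroid controls (7.01-fold lower, adjusted p = 0.0154), and the euthyroid controls spanned 4.88 to 8.07. The Dbp call was lost without hypothyroid control 17 or 18 or euthyroid mutant 2 or 4 (adjusted p of up to 0.0852). Ciart and Bhlhe41, both transcriptional repressors of the clock, fell 3.01- and 2.70-fold, and both calls were lost without hypothyroid control 17 or 18 or any 1 of the 3 euthyroid mutants (adjusted p of up to 0.155). Their euthyroid mutant means (3.52 and 3.86) lay below every array median and may be background, so these fold sizes are not settled.

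Among genes of glucose metabolism, 2 of 14 rose and 4 fell (42.9% called, against 2.64% of all clusters). Ugp2, which makes UDP-glucose for glycogen, read 8.09, 8.14 and 7.78 in euthyroid mutants, against 9.52, 9.25 and 9.70 in hypothyroid controls (2.80-fold lower, adjusted p = 2.61e-05). Ppp1r3c, a glycogen-targeting phosphatase subunit, fell 3.36-fold (adjusted p = 0.00747, but 0.0539 without hypothyroid control 17 and 0.05, at the threshold, without euthyroid mutant 4). Of 23 targets of the nuclear receptor PPARA and genes of fatty acid oxidation, 3 rose (13%, against 1.33% of all clusters) and 0 fell. Among them were Ehhadh, the peroxisomal bifunctional enzyme, and Pdk4, a pyruvate dehydrogenase kinase, at 1.98- and 2.88-fold. The Pdk4 call was lost without hypothyroid control 17 or 20 or any 1 euthyroid mutant (adjusted p of up to 0.156), and the Ehhadh call without hypothyroid control 17 or 20 or euthyroid mutant 2 (adjusted p of up to 0.121). Of 28 oxidative phosphorylation genes 0 were called and the median was 0.00, with the largest differences in Cycs and Cox5a (0.38 each). In the cell cycle list Ccnd1, cyclin D1, was the 1 called of 20 genes (5%), a share near the 2.64% of all clusters. It read 7.56, 8.43 and 8.38 in euthyroid mutants, against 5.54, 5.50 and 5.72 in hypothyroid controls (5.81-fold, adjusted p = 8.28e-05). In the growth hormone axis 2 of 17 genes were called (11.8%, against 2.64% of all clusters). The binding protein gene Igfbp2 rose 2.14-fold (adjusted p = 0.045), a call lost without euthyroid control 15, hypothyroid control 17 or 20, euthyroid mutant 2 or 3, or hypothyroid mutant 6 (adjusted p of up to 0.218). Stat5a, a transducer of growth hormone signals, rose 1.84-fold (adjusted p = 0.00227). In the acute phase list Saa2, a serum amyloid A gene, was the 1 called of 20 (5%), a share near the 2.64% of all clusters. It rose 2.45-fold (adjusted p = 0.00472).

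**Figure D4:**
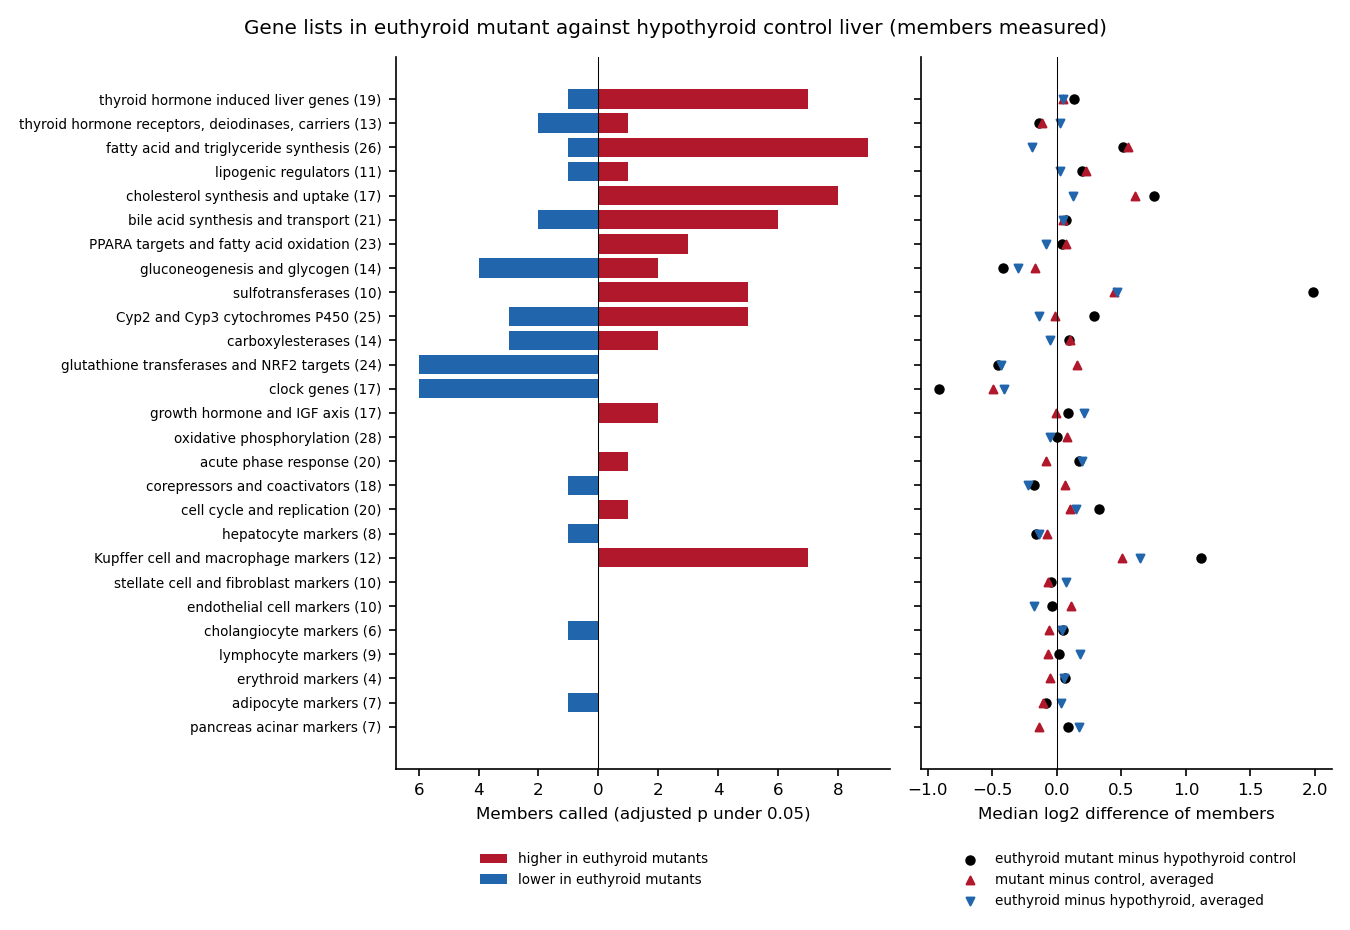
Gene lists in the contrast, with the number of measured members in brackets. Left: members called higher (red, to the right) or lower (blue, to the left) in euthyroid mutants; right: the median log2 difference of the members for the contrast (black), the mutant effect (upward triangle) and the thyroid effect (downward triangle). Sulfotransferases reach a median of 1.99, a midpoint between the called and the uncalled members with none near it. Clock genes stand at -0.91, and the Kupffer cell list at 1.12 with 7 of 12 called.

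Markers of Kupffer cells, the resident macrophages of liver, were higher in euthyroid mutants. Of 12 measured markers 7 (58.3%) rose, against 1.33% of all clusters, and 0 fell. All 12 differences were positive, against 11063 of the 21789 clusters, and the median was 1.12. Their summed linear signal was 1021 to 2383 in euthyroid mutants, 560 to 1057 in hypothyroid mutants, 815 to 919 in euthyroid controls and 551 to 613 in hypothyroid controls. By their means, 2 of the 12 lay below the array median. Cd5l, a secreted macrophage protein, read 6.84, 8.20 and 6.73 in euthyroid mutants, against 5.70, 5.46 and 5.52 in hypothyroid controls (3.25-fold, adjusted p = 0.00309). Clec4f, a Kupffer cell lectin, read 8.02, 8.22 and 7.35 in euthyroid mutants, against 6.33, 6.59 and 6.10 in hypothyroid controls (2.88-fold, adjusted p = 0.00213). Euthyroid mutant 3 was the highest array for both genes. The Vsig4 rise (3.23-fold) was not called without euthyroid control 15, any 1 hypothyroid control or euthyroid mutant 3, and that of Lyz2 (3.29-fold) not without any 1 hypothyroid control (adjusted p of up to 0.124). In whole liver, more cells of a type and more RNA per cell cannot be told apart. Lists of stellate, endothelial, lymphocyte, erythroid and pancreas acinar markers had 0 called members. Those of hepatocytes (12.5%), cholangiocytes (16.7%) and adipocytes (14.3%) each had 1, against 2.64% of all clusters. The hepatocyte member, Ttr, fell by 0.44 on the log2 scale (adjusted p = 0.045). The others, Krt23 for cholangiocytes and Pparg for adipocytes, were also lower. The Ttr call was kept in 2 of the 12 fits without 1 array, those without euthyroid controls 13 and 14, with an adjusted p of up to 0.168 in the others. The part of the Kupffer markers in the other results was not tested.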

How the data were processed

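Liver RNA of 12 samples (200 ng each) was hybridised to Affymetrix mouse Gene 1.0 ST arrays. The deposited values are log2 signals that the authors made with RMA, per the submitters' processing notes; its version, the feature build and scan dates were not stated there, and array batches could not be tested. Of 35557 clusters, 21789 had 1 symbol in the platform annotation and were tested; 1621 with several symbols and 12147 with none were left out. Entrez identifiers of 21698 were found in RefSeq (GRCm38.p6). limma 3.58.1 in R 4.3.3 fitted 4 group means to all 12 arrays (8 residual and 6.83 prior degrees of freedom), with Benjamini-Hochberg adjustment over all clusters within each contrast and no filter on level. Adjusted p-values are limma's throughout. Fold changes are 2 to the power of the log2 difference. The number of arrays limits the precision, and low signals may be background, which no detection value measures here.

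Named were the 12 largest rises and falls of the contrast, up to 10 clusters per sign with both effects alike, up to 12 with opposite effects, per list the 2 to 4 called members that changed most (else 2 as values), and Thrsp, Dio1, Me1, Gpd2, Klf9, Thra and Thrb. The members and gene lists were chosen with earlier results of these data known. Where a gene has several clusters, lists use the one with the highest mean. Alternatives were quantile normalization, median centring, a filter on dim clusters, every cluster of the table, array SD as a covariate, the 6 arrays alone, a stricter threshold, each array left out, and, added after seeing the data, the 2 outlying arrays left out.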

Additional observations from a re-analysis of the deposited data

How the results depend on the processing

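Most named results stayed on their side of the threshold. A called cluster counted as the same if it kept its call and direction. An uncalled cluster did so if it stayed uncalled and within the mean SD of the 2 groups. Over 102 named clusters and the settings for the whole table, 664 of 702 values were the same and 34 lost the call. A further 3 gained one, 1 uncalled value moved further than that SD, and 0 reversed. Without 1 array each, 1109 of 1224 were the same, 112 lost the call, 3 gained one and 0 reversed. Those fits include the ones without a hypothyroid mutant or a euthyroid control, arrays that lie outside the contrast. There the difference itself could not change, only its p-value, and most lost calls came from fits without an array of the contrast. The contrast of euthyroid mutant and hypothyroid control counted 272 clusters at an adjusted p under 0.01, and 282 (without hypothyroid control 17) to 791 (without euthyroid control 14) when 1 array was left out; 237 clusters were called in every one of those 12 fits. The averaged mutant effect counted 95 clusters when every cluster of the table was tested, 41 with array SD as a covariate, 140 without the 2 outlying arrays (added after seeing the data), and 107 to 1866 without 1 array. The averaged thyroid effect counted 872, 181 and 730 under those settings, and 680 to 3579 without 1 array. Clusters with both effects of 1 sign numbered 6 with the SD covariate and 30 to 117 without 1 array. Those with opposite signs numbered 9, 5 and 13 under the 3 settings and 11 to 697 without 1 array, so this set depends most on single arrays. The upper limits of the 2 averaged effects and of both sets are those without euthyroid control 13. The interaction counted 0 to 1. The split of the mutant effect was 197 higher to 51 lower, and 163 to 90 after quantile normalization; that of the thyroid effect was 407 to 910, 490 to 529 after quantile normalization, 277 to 1275 after median centring and, turned round, 131 to 50 with the SD covariate, under which the mutant effect was 25 to 16. The causes were not tested. No paired analysis was possible because the groups share no replicate numbers.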
